A study of Mus musculus with 16 samples.

Results

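Mouse embryonic stem (ES) cells lacking Unr were compared with wild-type ES cells 2 h after gamma irradiation at a dose of 8 Gy. The comparison used 6 of the 16 arrays of the study, 3 labelled KO unr and 3 labelled WT, chosen by their sample titles alone. The other arrays held growing cells (3 per genotype) and cells 24 h after irradiation (2 per genotype). Both groups at 2 h shared everything the labels record except genotype (unr -/- or unr +/+): cell type, irradiation, LIF in the medium, a feeder layer of embryonic fibroblasts stopped with mitomycin, and 1 h on gelatin after trypsin to remove the feeders. The strain is labelled mix 129/C56Bl/6 for both. Replicates are labelled as experiments, with no word on separate cultures or lines, so a p-value here reflects the spread among these samples alone, and that spread may be technical. Unirradiated cells kept for the same 2 h were not analysed here, so the comparison is one of genotype in irradiated cells and not of a response to irradiation.

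Unr is an RNA-binding protein built of cold-shock domains. It binds messenger RNAs together with partner proteins and affects their translation and their decay. ES cells keep the identity of the early epiblast under the transcription factors Pou5f1, Sox2 and Nanog, and can leave it towards primitive endoderm, an extra-embryonic lineage governed by Gata6, Gata4 and Sox17. Gamma irradiation breaks DNA and activates p53, whose targets stop the cell cycle or start cell death.

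Values are intensities in the scaled units of the deposited table, given in the order of replicates 1, 2 and 3. Differences are KO minus WT on the log2(intensity + 16) scale with their standard error (SE), from a limma fit over all 16 arrays. A gene or probe set was called where its Benjamini-Hochberg adjusted p over all 17736 tested probe sets was under 0.05. Because of the added 16, a difference understates the change of a dim gene.

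The ES cell label was borne out by its markers. Pou5f1 read 1270, 1240 and 1520 in WT and 1270, 1350 and 1630 in KO, and Sox2 read 594, 654 and 755 against 729, 696 and 567. The 26 measured feeder fibroblast genes summed to 2180, 3310 and 4440 in WT and to 2810, 2470 and 2670 in KO, with no called member and a median difference of -0.07. Their median was 0.39 between the 2 h arrays of hybridisation run 2 and -0.53 between those of run 4, so the sign differed between runs. In bulk RNA, fewer cells of a type and less RNA per cell cannot be told apart.

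One array stood apart. The 18S rRNA control signal was 2055 on KO 2 h replicate 2 and 24.4 to 74.7 on the other arrays at 2 h. One array of the growing cells, WT replicate 1, read 459. The arrays also differed at the dim end. In the dimmest 4434 tested probe sets (intensity 2.89 to 20.1) the array medians were 11.66, 10.12 and 10.48 in WT and 15.72, 13.81 and 11.84 in KO. The median difference there was 0.15, against -0.022 in the brightest 4434 and 0.045 over all probe sets. In growing cells the dimmest probe sets had the opposite sign, with a median of -0.119. The part of this offset in the calls was not tested.

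At 2 h, 70 probe sets were called, or 0.395% of those tested, 35 higher in KO (0.197%) and 35 lower (0.197%). They named 31 genes that were higher and 29 that were lower. On all 70 the KO and WT arrays did not overlap, a property that 13.6% of tested probe sets had with KO higher and 8.61% with KO lower. At an unadjusted p under 0.05 there were 2636 probe sets. The rises and falls differed in brightness. The median of the brighter group mean was 57.3 for probe sets that were higher and 239 for those that were lower, and 17 of 35 rises had both group means under 50, against 2 of 35 falls.

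**Figure D1:**
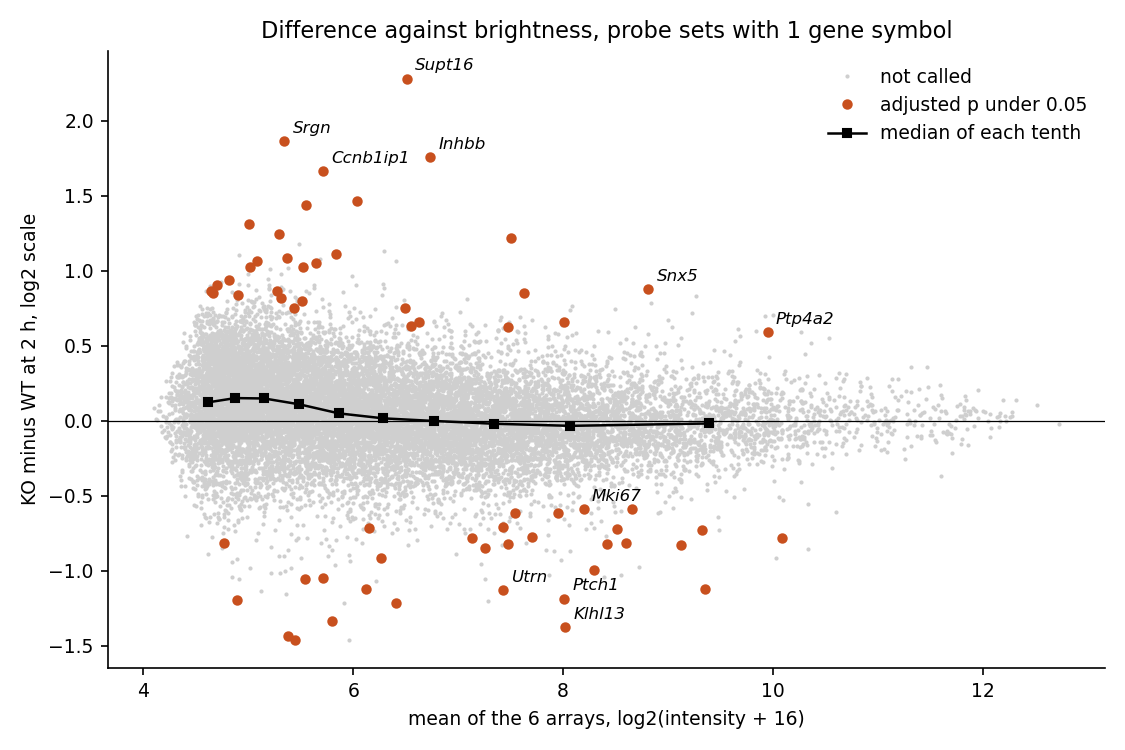
Difference between KO and WT at 2 h (log2 scale, vertical axis) against the mean of the 6 arrays (log2(intensity + 16), horizontal axis) for tested probe sets with 1 gene symbol; filled points were called and the black line joins the medians of 10 equal groups of probe sets. Rises lie mostly at the dim end, where the median difference is above 0, and falls mostly at the bright end.

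The number of calls depended on single arrays. It was 28, 43 and 29 without KO replicate 1, 2 or 3, and 32, 28 and 25 without WT replicate 1, 2 or 3. Without both arrays of high 18S signal it was 41, with 18 higher and 23 lower, of which 30 were among the 70. Without the arrays of the second hybridisation day, which held every replicate 3, it was 4, with 2 arrays left in each group. Setting the array medians equal moved the median of all probe sets from 0.045 to -0.059 and gave 23 higher and 95 lower calls, so the balance of rises and falls rests on the scaling. Of the 60 called genes, 2 (Supt16 and Ccnb1ip1) kept their call in all of the other fits, and 9 lost it only without the second day: Srgn, Inhbb, Myo7a, Cubn, Abca1, Nras, Gpc3, Klhl13 and Utrn. A further 27 lost it in 2 to 10 of the other fits and 22 in more than 10 of up to 20. Those 22 were the rises of Akr7a5, Cd37, Cel, Fmr1nb, Hdgfl3, Olfr71, Paqr4, Phldb1, Ptp4a2, Slc6a5, Snx5, Ucp3, Zbed3 and Zbtb44, and the falls of Adgra3, Mki67, Psrc1, Pttg1, Rab11fip5, Rlim, Shcbp1 and Vamp3.

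Supt16 encodes a subunit of FACT, the histone chaperone that lets polymerases pass nucleosomes. Its called probe set read 27.6, 24.6 and 24.0 in WT and 207, 206 and 147 in KO. All KO arrays were far above all WT arrays, and the difference of 2.28 ± 0.15 (SE, n = 3 and 3; adjusted p = 2.36e-08) was the largest rise of a named gene at 2 h. A brighter probe set of the same gene read 377, 401 and 588 against 733, 834 and 855, which gave 0.83 and an adjusted p of 0.0507. The 2 probe sets thus had the same direction and different sizes. The called one had 1.96 in growing cells and 2.24 at 24 h and was called in both.

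Ccnb1ip1, whose protein is a ubiquitin ligase needed for meiotic crossing-over, read 11.5, 10.9 and 18.4 in WT and 77.6, 68.4 and 86.1 in KO (1.66 ± 0.18, SE, n = 3 and 3; adjusted p = 7.37e-05). The groups lay far apart, as they did in growing cells (2.10) and at 24 h (1.82). Ccnb1ip1, Supt16 and Rpgrip1 all lie on chromosome 14, where Rpgrip1 is 17 and Supt16 18 places from Ccnb1ip1 in the order of genes on the array. None of the other tested genes within 10 places of Ccnb1ip1 was called. Apex1, the base excision repair nuclease, had 0.18, Parp2 had 0.06, Osgep had -0.25 and Ttc5 had 0.45. The probe set of Apex1 may cross-hybridise by its identifier. Another of Apex1 without that flag had -0.34 (adjusted p = 0.199), and a further flagged probe set had 0.02. Otx2, a homeobox gene 8 places away, had the largest difference of these neighbours at 0.54 (adjusted p = 0.252), with 0.72 in growing cells and 1.22 at 24 h. Tmem260 had 0.47, and the others lay between -0.25 and 0.27. Rpgrip1, known for its protein in the photoreceptor cilium, was lower, at 880, 710 and 852 in KO against 1360, 1310 and 1560 in WT (-0.78, adjusted p = 0.0102). Another probe set of Rpgrip1 had 0.25. On chromosome 14, 4 probe sets were called of 561 tested (0.713%), beside 0.395% of all tested probe sets, 0.709% on chromosome 7 and 1.17% on X. The remaining called gene on chromosome 14 was Trim13, lower in KO and 126 places from Ccnb1ip1.

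Among primitive endoderm genes 21 of 24 had a higher KO mean, and few were called. Of the 24, 2 were higher, none was lower and the median was 0.34, beside 0.254% of all genes higher, 0.176% lower and a median of 0.054 over all 10252 genes. The list had a median of 0.31 in growing cells. The part of the offset at the dim end in these values was not tested. Srgn, which encodes the proteoglycan serglycin, read 2.65, 4.48 and 9.31 in WT and 57.1, 43.4 and 91.1 in KO (1.86 ± 0.29, SE, n = 3 and 3; adjusted p = 0.00482). WT was near the floor of the array, so the size follows the added constant, with 3.39 for an added 1 and 0.86 for an added 64. Cubn, the endocytic receptor cubilin of visceral endoderm, read 9.04, 9.97 and 9.37 in WT and 46.2, 35.5 and 53 in KO (1.25 ± 0.20, SE, n = 3 and 3; adjusted p = 0.0055). The identifier of this probe set flags possible cross-hybridisation, and a further one of Cubn had 0.91 with an adjusted p of 0.0965. Cubn was also the 1 called gene of 9 measured visceral endoderm genes, whose median was 0.28.

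The transcription factors that define the lineage were not called. Gata6 read 16.8, 8.34 and 20.3 in WT and 52.2, 25.8 and 34.8 in KO (0.77, adjusted p = 0.116). Its groups did not overlap, and all arrays were dim. Gata4 had 0.53, Sox7 0.54, Sox17 0.34 and the receptor gene Pdgfra 0.53, all with adjusted p of 0.2 or more. Dab2, an endocytic adaptor of the primitive endoderm, was brighter, at 34.7, 22.0 and 32.4 in WT and 79.7, 55.8 and 84.5 in KO (0.96, adjusted p = 0.0709). The summed level of the list overlapped between the groups, at 3070, 3860 and 3550 in WT and 3830, 3850 and 4020 in KO. Nid2, a basement membrane protein, was the lowest member at -0.39.

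**Figure D2:**
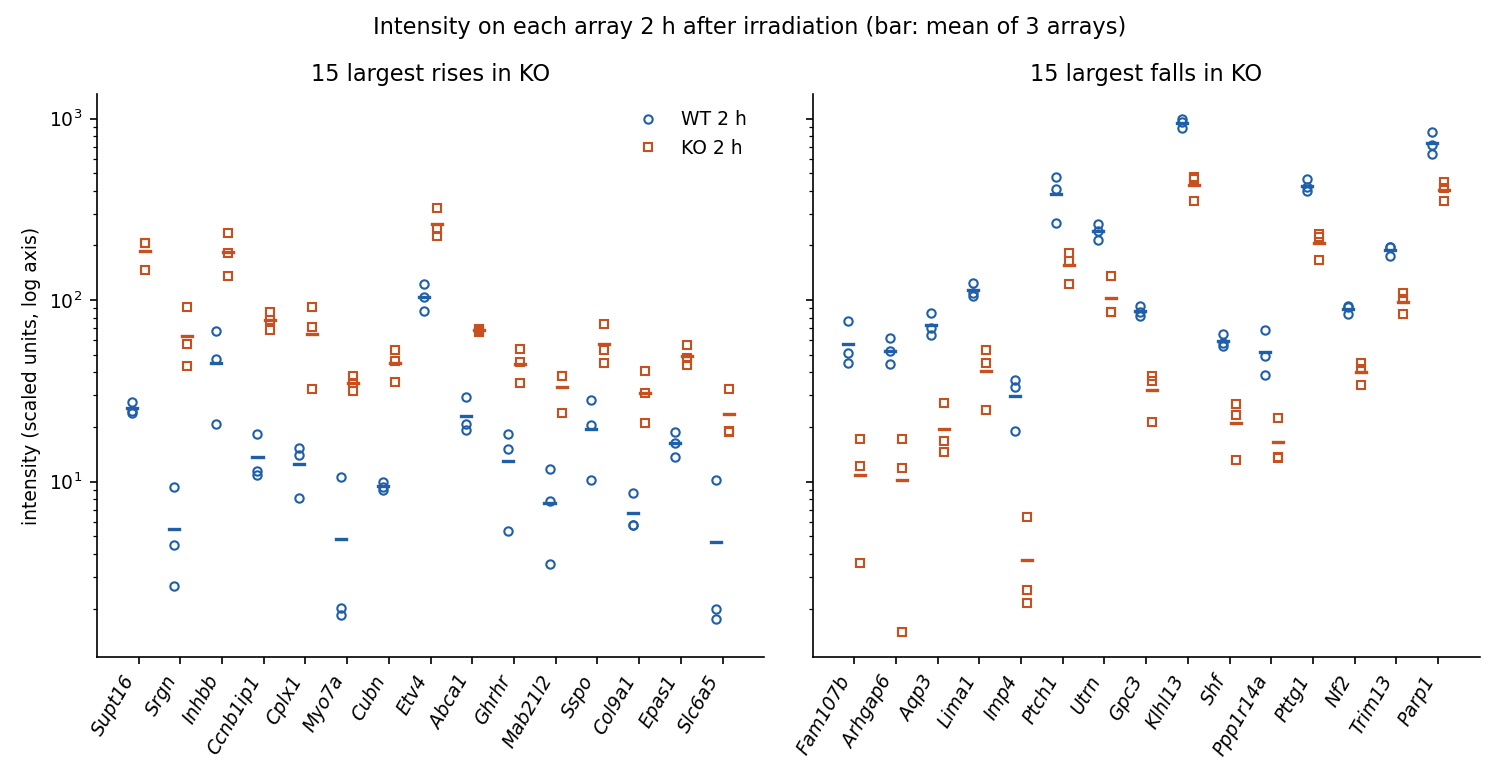
Intensity on each of the 6 arrays at 2 h (log axis, scaled units) for the 15 largest rises and the 15 largest falls among called genes; circles are WT, squares KO, and bars the means of 3 arrays. No KO array overlaps a WT array in any of these genes, and most genes on the left lie below 100 in WT while Klhl13 and Parp1 on the right lie above 600.

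Of 33 measured genes of activin, Nodal and BMP signalling, 1 was higher and none was lower, with a median of 0.07. Over all genes 0.254% were higher and 0.176% lower, the shares to set beside this list and the later ones. The called gene was Inhbb, which encodes the beta B subunit that forms activin B. It read 67.5, 20.7 and 47.4 in WT and 233, 136 and 182 in KO (1.76 ± 0.26, SE, n = 3 and 3; adjusted p = 0.0029). A second probe set of Inhbb was also called, with 1.47. The first was called in growing cells too (1.51) and had 1.21 at 24 h with an adjusted p of 0.234. Lefty1, a Nodal antagonist, read 806, 312 and 749 in WT and 294, 251 and 310 in KO, with a difference of -0.98 and an adjusted p of 0.156. WT replicate 2 was close to the KO arrays. Id2, a target of BMP signalling, had -0.82 and Bmp4 had 0.56, and neither was called.

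In the FGF and ERK list, 1 of 20 measured genes was higher and none lower, with a median of 0.07. Etv4, a transcription factor switched on by FGF signals, read 104, 122 and 87.0 in WT and 245, 227 and 320 in KO (1.22 ± 0.22, SE, n = 3 and 3; adjusted p = 0.0183). All KO arrays were higher, also in growing cells (1.13). Nras, a small GTPase upstream of ERK, was called by 1 of 3 probe sets, at 137, 127 and 129 in WT against 262, 227 and 260 in KO (0.85, adjusted p = 0.0024). The brightest probe set had 0.57 (adjusted p = 0.137) and the third 0.49. Nras was called in growing cells (0.78) and at 24 h (0.81) as well. Spred2, an inhibitor of ERK signalling, had 0.50 and was not called.

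Several further rises came from single genes of other pathways. Abca1, the exporter of cellular cholesterol, read 19.2, 29.2 and 20.8 in WT and 68.3, 66.9 and 69.3 in KO (1.11 ± 0.16, SE, n = 3 and 3; adjusted p = 0.0029). Epas1, the hypoxia-inducible factor HIF-2 alpha, read 16.4, 18.7 and 13.7 against 48.0, 56.6 and 44.0 (1.02, adjusted p = 0.0201). Both were low in WT and all KO arrays were higher. Cplx1, a regulator of synaptic vesicle fusion, read 14.1, 8.18 and 15.4 against 92.1, 32.5 and 71.1 (1.44, adjusted p = 0.0109). Of 17 unconventional myosins 1 was higher, with a list median of 0.17. This was Myo7a, a motor of sensory hair cells, which read 1.85, 2.01 and 10.6 against 35.1, 31.4 and 38.2 (1.31, adjusted p = 0.0043). Myo10, the motor of filopodia, lay the other way at -0.68 and was not called.

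Further genes of the 15 largest rises had dim values in WT, and none of these was called in growing cells. Ghrhr, the receptor for growth hormone-releasing hormone, read 5.34, 15.2 and 18.4 in WT and 53.6, 35.1 and 45.5 in KO (1.08, adjusted p = 0.0197). Mab21l2, a gene of eye development, read 3.50, 11.7 and 7.81 against 38.4, 38.0 and 23.9 (1.06, adjusted p = 0.00959). Sspo, which encodes the secreted SCO-spondin, read 10.2, 28.2 and 20.5 against 73.8, 53 and 44.9 (1.05, adjusted p = 0.0318). In growing cells these 3 had -0.30, -0.04 and -0.26. Col9a1, a chain of cartilage collagen, read 8.67, 5.80 and 5.78 against 40.7, 30.7 and 21.1 (1.02, adjusted p = 0.0204). Slc6a5, a glycine transporter of neurons, read 1.76, 10.2 and 2.00 against 32.4, 18.9 and 19.1 (0.94, adjusted p = 0.0367). Their differences in growing cells were -0.22 and -0.26, and all lie in the range of brightness where KO arrays were higher as a whole at 2 h.

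The remaining rises were smaller, and most were among those whose call was lost in more than 10 other fits, such as Cd37 in 16 and Cel and Fmr1nb in 15. Snx5, a sorting nexin of endosomes, had 0.88 and Ptp4a2, a phosphatase of the PRL family, 0.59, and these were the bright ones, at 512 to 656 and 1150 to 1250 in KO. The other 4 probe sets of Snx5 had 0.14 to 0.39 and none was called, with 0.19 for the brightest. Orai1, the pore of store-operated calcium channels, had 0.75, Zbed3 0.66, Akr7a5 0.66, Phldb1 0.63 and Zbtb44 0.62. Cd37 had 0.91, Olfr71 0.87, Fmr1nb 0.86, Cd80 0.85, Paqr4 0.84, Ucp3 0.82, Hdgfl3 0.80 and Cel 0.75, all with KO values under 50. The probe sets of Akr7a5 and Zbed3 may cross-hybridise by their identifiers.

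Among the falls, Klhl13, an adaptor that brings substrates to the cullin 3 ubiquitin ligase in mitosis, was bright and lower on every KO array. It read 884, 958 and 993 in WT and 351, 474 and 465 in KO (-1.12 ± 0.16, SE, n = 3 and 3; adjusted p = 0.0025). A second probe set was also called, with -1.37, and the first was called in growing cells (-1.02) and at 24 h (-1.07). Klhl13 was the 1 called gene of 21 measured Kelch adaptors and cullin ligases, whose median was -0.05. Utrn, which encodes utrophin, a relative of dystrophin, read 215, 262 and 241 against 85.6, 136 and 86.5 (-1.13 ± 0.16, SE, n = 3 and 3; adjusted p = 0.0028). It was the 1 called gene of 12 in the dystrophin and dystroglycan list, which had a median of 0.09.

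Of 14 measured Hedgehog genes, 2 were lower and none higher, with a list median of 0.16. Over all genes 0.176% were lower and 0.254% higher. Ptch1, the Hedgehog receptor and itself a target of the pathway, read 476, 265 and 409 in WT and 165, 182 and 123 in KO (-1.19 ± 0.19, SE, n = 3 and 3; adjusted p = 0.00763). All KO arrays were lower, and a dimmer probe set had -0.98 with an adjusted p of 0.062. Gpc3, a glypican that restrains Hedgehog signalling, read 86.2, 81.8 and 92.6 against 35.9, 38.3 and 21.3 (-1.12 ± 0.16, SE, n = 3 and 3; adjusted p = 0.0029). Gpc3 was also the 1 called gene of 21 heparan sulphate proteoglycans and enzymes, whose median was 0.08. Gli1, a transcription factor induced by the pathway, had -0.59 and Gli2 had 0.44, and neither was called.

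Of 33 measured genes of G2 and mitosis, 1 was lower and none higher by the brightest probe set, with a median of -0.14. In 10 of them the KO arrays lay below all WT arrays, as did 8.61% of all tested probe sets, a share that covers every level of brightness. The list had a median of 0.01 in growing cells. Mki67, the proliferation antigen Ki-67 that coats mitotic chromosomes, read 344, 361 and 326 in WT and 231, 203 and 236 in KO (-0.59 ± 0.11, SE, n = 3 and 3; adjusted p = 0.0238). Pttg1, which encodes securin, the inhibitor of separase, read 462, 397 and 422 against 231, 167 and 224 on its called probe set (-1.0 ± 0.21, SE, n = 3 and 3; adjusted p = 0.0451). The brighter probe set of Pttg1 read 2200, 1550 and 1470 against 974, 776 and 1110, with -0.85 and an adjusted p of 0.0692. KO was lower on every array with both of these, and Pttg1 had -0.99 in growing cells with the called probe set. A further, dimmer probe set of Pttg1 had -0.23 at 2 h (adjusted p = 0.596). Psrc1, a microtubule protein of the spindle, read 443, 401 and 471 against 205, 260 and 263 (-0.82, adjusted p = 0.0415), on a probe set with an identifier of possible cross-hybridisation. A probe set of Psrc1 without that flag, brighter at 2 h, had only -0.15 (adjusted p = 0.676). A dim one had -0.29 and was not called either. The spindle checkpoint kinase gene Ttk read 243, 206 and 215 against 139, 126 and 157, which gave -0.60 and an adjusted p of 0.0645. Shcbp1, a protein of the dividing cell's midbody, had -0.61 and was called. Of 20 other fits, 11 ended the call of Mki67, 11 that of Shcbp1, 12 that of Psrc1 and 13 that of Pttg1.

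The promoters of these mitotic genes are shown because many promoters of the class carry CCAAT boxes and the cell cycle element TTTGAA. The windows are the 250 bases before the annotated start, from RefSeq on GRCm38.p6, written 5′ to 3′ on the strand of the gene. Capitals mark CCAAT and TTTGAA on either strand (ATTGG and TTCAAA on the strand shown), and no matches overlap in the windows shown. For Psrc1 the first of 2 listed windows is given.
Mki67 (chr7:135716380-135716629, minus strand): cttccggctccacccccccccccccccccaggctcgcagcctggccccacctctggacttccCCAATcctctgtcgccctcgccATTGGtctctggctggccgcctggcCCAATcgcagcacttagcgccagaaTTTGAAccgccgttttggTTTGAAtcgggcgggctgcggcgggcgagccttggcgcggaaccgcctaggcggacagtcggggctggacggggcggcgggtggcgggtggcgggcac
Psrc1 (chr3:108383554-108383803, plus strand): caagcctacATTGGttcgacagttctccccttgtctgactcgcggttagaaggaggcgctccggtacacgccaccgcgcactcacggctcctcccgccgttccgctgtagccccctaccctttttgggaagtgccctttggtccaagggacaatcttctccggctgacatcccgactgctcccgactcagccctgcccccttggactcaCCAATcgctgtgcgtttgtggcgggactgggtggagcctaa
Pttg1 (chr11:43425982-43426231, minus strand): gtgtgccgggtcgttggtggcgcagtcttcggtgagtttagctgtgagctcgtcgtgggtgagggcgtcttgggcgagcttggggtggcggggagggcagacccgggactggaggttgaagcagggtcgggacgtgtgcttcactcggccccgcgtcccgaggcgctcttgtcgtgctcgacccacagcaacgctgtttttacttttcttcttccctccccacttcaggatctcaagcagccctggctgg
The Mki67 window held 3 CCAAT boxes and 2 TTTGAA elements, the Psrc1 window 2 CCAAT boxes and no TTTGAA, and the Pttg1 window neither. Among all 32851 windows 33.8% held CCAAT, 16% held TTTGAA and 5.55% held both. This full set can hold several windows of a gene, while for called genes only the first listed window was counted. Of 27 windows of genes called lower, 11 held CCAAT (40.7%), 4 held TTTGAA (14.8%) and 2 held both (7.41%). Of 28 windows of genes called higher, 5 held CCAAT (17.9%), 5 held TTTGAA (17.9%) and 1 held both (3.57%). A match of letters is a description of the sequence and not a site of binding.

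Enzymes that work on DNA were also among the falls. Parp1, which attaches ADP-ribose chains to proteins at DNA breaks, read 717, 839 and 638 in WT and 415, 350 and 449 in KO (-0.83 ± 0.13, SE, n = 3 and 3; adjusted p = 0.00723), on a probe set with an identifier of possible cross-hybridisation. A further probe set was called with -0.71. The brightest read 1070, 892 and 832 against 695, 689 and 562, with -0.51 and an adjusted p of 0.0706, so all 3 were lower on every KO array and 2 were called. Pold1, the catalytic subunit of DNA polymerase delta, had -0.82 (adjusted p = 0.0252) on a probe set that may cross-hybridise by its identifier, and a brighter one of it had -0.20. Neither the list of DNA repair and checkpoint genes (29 measured, median -0.08) nor that of G1/S and DNA replication (36 measured, median -0.06) held a called gene by its brightest probe set.

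The largest falls of named genes were those of Fam107b, Arhgap6, Aqp3 and Lima1. Fam107b read 44.8, 77.2 and 51.1 in WT and 3.55, 17.1 and 12.2 in KO (-1.46 ± 0.25, SE, n = 3 and 3; adjusted p = 0.0122). Arhgap6 read 52.4, 61.5 and 44.4 against 17.1, 1.49 and 11.9 (-1.44, adjusted p = 0.0195), on a probe set of possible cross-hybridisation. In both every KO array was below every WT array, and their other probe sets lay on the same side. Aqp3, a channel for water and glycerol, read 84.9, 64.2 and 69.9 against 27.1, 14.6 and 16.7 (-1.34, adjusted p = 0.023). Lima1, an actin-bundling protein, read 109, 125 and 106 against 53, 24.7 and 45.1 (-1.21, adjusted p = 0.0204). Lima1 had -0.18 in growing cells.

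Some falls rested on 1 probe set that others of the gene did not share. Nf2, which encodes the tumour suppressor merlin, read 84.0, 91.6 and 93.3 in WT and 41.8, 45.0 and 34.1 in KO (-0.91, adjusted p = 0.0131), while its other 3 probe sets had 0.02, 0.06 and 0.11. Imp4, a factor of ribosomal RNA processing, read 19.1, 33.4 and 36.3 against 6.40, 2.15 and 2.53 (-1.20, adjusted p = 0.0204), while a far brighter probe set had -0.12. Over all called genes, 34 had another tested probe set, and in 28 of these all others had the sign of the called one. In 3 another was called as well, namely Inhbb, Klhl13 and Parp1. In 6 at least 1 had the opposite sign, and these were Akr7a5, Hdgfl3, Nf2, Rpgrip1, Sin3b and Vamp3.

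**Figure D3:**
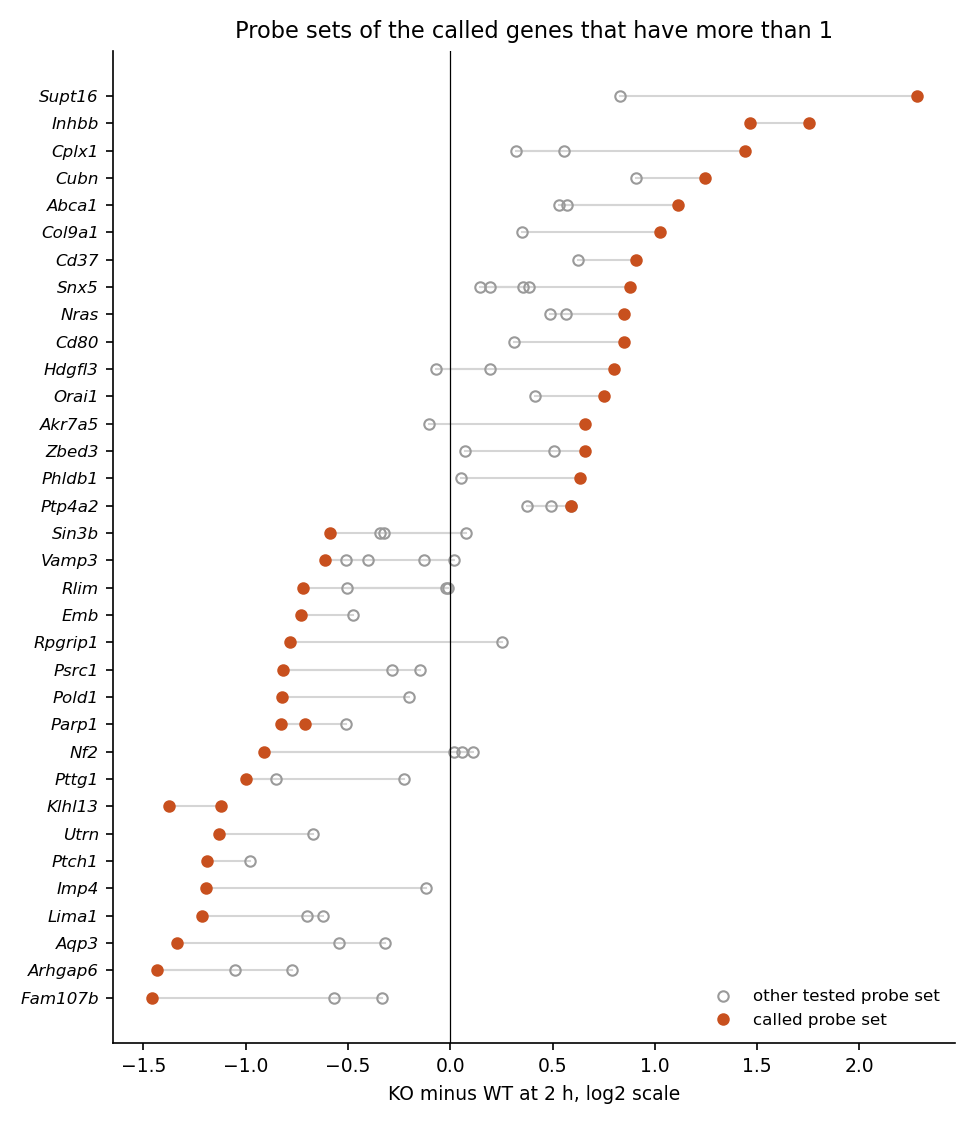
Difference between KO and WT at 2 h (log2 scale, horizontal axis) for every tested probe set of the called genes that have more than 1, with called probe sets filled and others open. Most open points lie on the side of the filled one and closer to 0, as for Supt16 (0.83 and 2.28), while those of Nf2 lie at 0.02 to 0.11.

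Other falls were Shf at 56.0, 65.4 and 57.8 in WT and 13.1, 26.7 and 23.4 in KO (-1.05, adjusted p = 0.0138) and Ppp1r14a, an inhibitor of myosin phosphatase, at 68.3, 49.0 and 38.6 against 13.7, 22.5 and 13.5 (-1.05, adjusted p = 0.0109). Trim13, a ubiquitin ligase of the endoplasmic reticulum, read 175, 195 and 197 against 83.4, 102 and 109 (-0.85, adjusted p = 0.0109) and was called in growing cells (-0.94). All KO arrays were lower in each. Trh, the precursor of thyrotropin-releasing hormone, had -0.81 and Cst3, the protease inhibitor cystatin C, -0.78. Rlim, the ubiquitin ligase that acts in X inactivation, had -0.72, Emb -0.73, Adgra3 -0.72, Vamp3 -0.61 and the corepressor gene Sin3b -0.59. Rab11fip5 had -0.81, on a probe set of possible cross-hybridisation, and Zfp932 had -0.78.

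The response to irradiation is marked by p53 targets, apoptosis regulators and immediate-early genes. Of 36 measured p53 targets none was called, and the median was -0.04. Cdkn1a, the cell cycle inhibitor p21, read 720, 753 and 879 in WT and 543, 604 and 721 in KO (-0.33 ± 0.22, SE, n = 3 and 3; adjusted p = 0.509). The highest KO array just exceeded the lowest WT array. Mdm2, the ubiquitin ligase of p53, read 1050, 1290 and 854 against 836, 1210 and 953 (-0.09), with overlapping groups. A dimmer probe set of Mdm2 lay the other way, with means of 662 in WT and 884 in KO (0.44, adjusted p = 0.198). Of 24 apoptosis regulators none was called, with a median of 0.25, and the largest difference among the brighter ones was that of the pro-apoptotic Bak1 at 0.59. The anti-apoptotic Mcl1 had 0.43 and Birc2 0.39. None of 23 immediate-early genes was called (median -0.11), with Fos at -0.03 and Atf3 at 0.69.

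Pluripotency genes held no call among 25 measured and had a median of -0.03. Nanog read 662, 609 and 555 in WT and 503, 378 and 426 in KO (-0.47 ± 0.17, SE, n = 3 and 3; adjusted p = 0.199), without overlap. Klf2 had -0.73 and Tcl1 -0.65, also without a call, and Klf4 had 0.23. Zfp42 had -0.46. Of 12 mesoderm and primitive streak genes all had a higher KO mean and none was called, with a median of 0.35. These genes were dim, their sum being 212, 222 and 240 in WT and 414, 325 and 359 in KO, and in growing cells their median was -0.01. The part of the dim-end offset in this was not tested either. Of 10 epiblast and priming genes none was called, with a median of 0.13 and Dnmt3a at 0.63.

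Genes of sterol synthesis had the lowest median of the lists, -0.30 over 17 measured, and none was called. In 10 of the 17 the KO arrays lay below all WT arrays without overlap, as did 8.61% of all probe sets. That share covers every level of brightness, and the share at the brightness of these genes was not worked out. Msmo1, a sterol methyl oxidase, read 292, 438 and 324 in WT and 213, 162 and 175 in KO (-0.87 ± 0.22, SE, n = 3 and 3; adjusted p = 0.0918). Ebp, a sterol isomerase, had -0.52 and Sc5d, a desaturase, -0.40. The summed level of the list did not overlap, at 3590, 3510 and 3340 in WT and 2660, 2700 and 2830 in KO. In growing cells the median was -0.20.

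**Figure D4:**
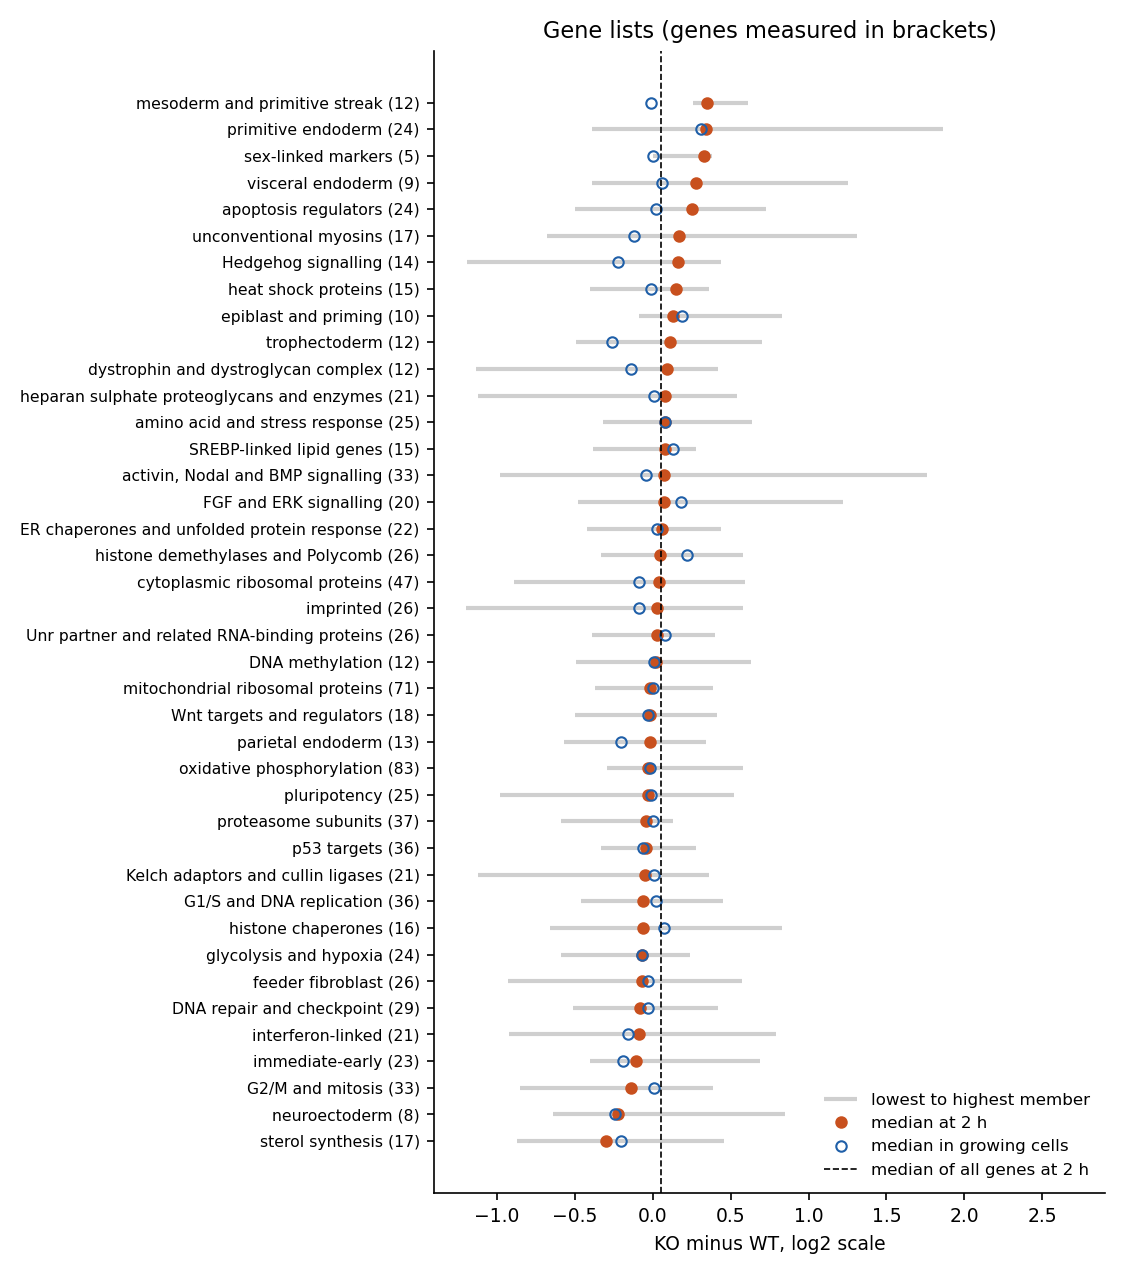
Median difference between KO and WT at 2 h (filled) and in growing cells (open) for each gene list (log2 scale, horizontal axis), with grey bars from the lowest to the highest member at 2 h and the dashed line at the median of all genes at 2 h, 0.054. Sterol synthesis has the lowest median at 2 h (-0.30) and mesoderm and primitive streak the highest (0.35).

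In all, 30 of the 40 lists held no gene called by its brightest probe set, with medians from -0.30 to 0.35. Among these 30, the histone chaperones held Supt16 and the DNA repair and checkpoint genes held Parp1, each called on a dimmer probe set. The 47 cytoplasmic ribosomal proteins had a median of 0.04, the 37 proteasome subunits -0.04, and the 26 genes of Unr partner and related RNA-binding proteins 0.03. Among single uncalled genes, Ifitm1, an interferon-induced membrane protein, read 1550, 1490 and 1240 in WT and 664, 995 and 625 in KO (-0.92, adjusted p = 0.0659). Plagl1, an imprinted zinc finger gene, read 101, 348 and 294 against 82.5, 72.8 and 108 (-1.20, adjusted p = 0.118), with WT replicate 1 within the range of KO. At 2 h the differences of the keratin genes Krt8, Krt18 and Krt19 were set by WT replicate 2. Krt8 read 75.1, 741 and 76.4 in WT and 125, 159 and 97.5 in KO, and its difference of -0.40 became 0.62 without that array. In all of these genes replicate 2 was the highest array of every group, in both genotypes and all states. For Krt8, WT replicate 2 read 737 in growing cells and 1160 at 24 h.

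The same contrast in growing cells called 44 probe sets (0.248%) and at 24 h 11 (0.062%). These use other arrays but share the estimate of spread. Of the 70 calls at 2 h, 24 were also called in growing cells, which is 34.3% of the 2 h calls and 54.5% of the growing ones. All 11 calls at 24 h were among the 70. The 35 falls had the same sign in growing cells in 34, and the 35 rises in 21. The difference between the genotype effects at 2 h and in growing cells was tested directly, and it was called for 0 probe sets (0% of 17736), with a lowest adjusted p of 0.182 and 1763 probe sets at an unadjusted p under 0.05. Its largest positive values were Zbtb16 at 1.88, Cd37 and Art1 at 1.52, Gm12185 at 1.49 and Gm6211 at 1.45. Its largest negative values were Rusc1 at -1.35, Slc35c2 at -1.23, the deacetylase gene Sirt2 at -1.18, Pyroxd1 at -1.12 and Tor4a at -1.04. So no gene was shown to differ between genotypes at 2 h alone, although 46 calls at 2 h were not called in growing cells.

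**Figure D5:**
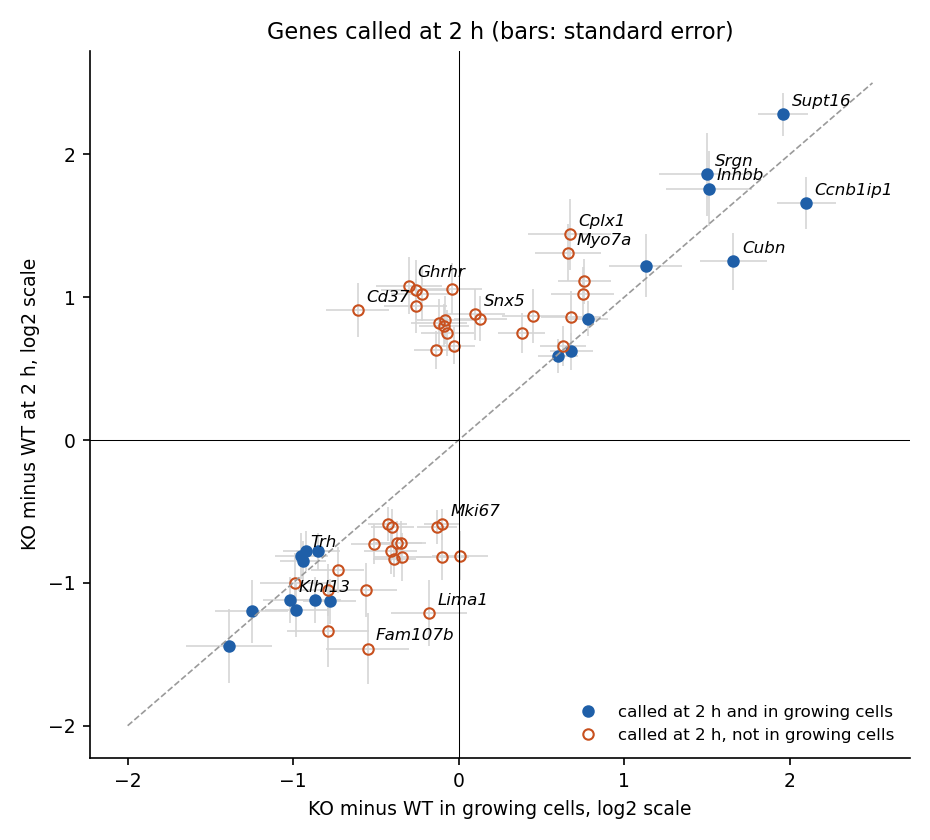
Difference between KO and WT at 2 h (vertical axis) against that in growing cells (horizontal axis), both on the log2 scale with standard errors, for the genes called at 2 h; filled points were called in both and the dashed line marks equal differences. Supt16, Srgn and Inhbb lie near the line, and a group of dim rises that includes Ghrhr (-0.30 in growing cells) and Cd37 lies to the left of 0.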

How the data were processed

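Total RNA was measured on 16 Affymetrix mouse arrays. The deposited values are intensities on a linear scale, scaled by the authors to a trimmed mean of 100 on each array. How probes were summarised into probe sets is not stated in the sources used here. The other deposited files hold settings of the instrument, per the file headers, and served only to sort arrays into 4 runs on 2 days. The 64 control probe sets were left out, and 20380 probe sets had 1 gene symbol. After adding 16 and taking log2, limma 3.58.1 (R 4.3.3) was run on probe sets with at least 1 group mean above the 30th percentile of the whole table, an intensity of 11.9. One mean per group was fitted over all 16 arrays (eBayes with an intensity trend, 10 residual degrees of freedom), with 2-sided tests and the Benjamini-Hochberg correction. The script was tested on simulated data. A gene in a list was represented by its brightest tested probe set.

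Full values were given by rule for the 15 largest rises and falls among called genes without overlap and for called genes of the lists. Differences alone were given for other called genes, for up to 3 uncalled members of a list with a mean of at least 50, for a few fixed genes, and for neighbours of Ccnb1ip1. The genes and lists were chosen with earlier results of these data known. The inactivated gene itself is not reported here, and genotype labels were taken as given. The number of arrays limits the precision. Alternatives were other added constants, normalizations, filters, blocks and the leaving out of arrays.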

Additional observations from a re-analysis of the deposited data

Results flagged for a closer look

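For 5 of the genes named by rule, some of them for this very difference, every KO array lay above every WT array at 2 h and below every WT array in growing cells. Over all 17736 tested probe sets 187 had this pattern (1.05%), and 18 had the opposite one (0.101%). The difference at 2 h minus that in growing cells was 1.88 for Zbtb16, 1.52 for Cd37, 1.49 for Gm12185, 0.75 for Tmem260 and 0.68 for Myo9a on the log2 scale. None passed limma's test of that difference, whose lowest adjusted p was 0.182. Zbtb16, a zinc finger transcription factor, read 14.8, 9.23 and 12.4 in WT at 2 h and 36.4, 39.2 and 21.3 in KO. In a fit over only the arrays of the groups compared, Zbtb16 was the 1 call. Cd37, Gm12185 and Tmem260 had all arrays at 2 h under 30, in the range of brightness in which KO arrays were higher at 2 h and lower in growing cells. The next 4434 probe sets (intensity 20.1 to 52.5) were shifted the same way, with medians of 0.091 at 2 h and -0.08 in growing cells. The 2 h values of Zbtb16 lay within these ranges. Myo9a was near the top of them, with 2 h means of 37.4 in WT and 52.5 in KO. The part of that offset in any of these genes was not tested.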

How the results depend on the processing

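The 70 calls at 2 h became 118 with array medians set equal, 187 with the hybridisation run as a block, 25 to 43 with 1 array left out, 41 without the arrays of high 18S signal and 4 without the second day. With cyclic loess, which was chosen after seeing the data, there were 28 rises and 52 falls, and with only the compared groups 21 and 41. With the run block there were 73 and 114. Both arrays of high 18S signal left out with the run as a block, also chosen after seeing the data, gave 70 calls, 34 of them shared. Same-numbered arrays at 2 h had correlated deviations of 0.17, 0.174 and 0.097. Every KO and WT pair with different numbers at 2 h had a negative correlation, from -0.153 to -0.024. Deviations from a group mean cancel out within the group, so positive same-numbered values force negative values elsewhere. The negative values are therefore not separate evidence. In growing cells the same-numbered values were 0.143, -0.092 and 0.136. The labels name experiments and state no pairing of KO with WT arrays, and whether they were paired was not tested. The reported fit had no term for the replicate number, so it did not use any such pairing. The replicate block gave 198 calls at 2 h, including all 70, with 124 in growing cells and 35 at 24 h. The interaction went from 0 to 1 call with only the compared groups. The 44 calls in growing cells became 144 with the run block, 25 without a filter, 24 without the trend, 24 with only the compared groups, 23 without high 18S, 20 with that and the run block, 6 without the second day, and 6 to 46 with 1 array left out. The 11 at 24 h became 20 with a filter at the 50th percentile, 23 with the run block, 7 without the trend, 3 with only the compared groups, 25 with quantile normalization, 5 without the second day, and 8 to 22 with 1 array left out. The cause was not tested. No called gene changed sign in any of these fits. Sign changed in 43 values of 19 uncalled genes. With 1 array left out, Ap5m1 ranged from -0.18 to 0.11, Apoe from -0.24 to 0.00, Dag1 from -0.09 to 0.28, Dnmt3b from -0.17 to 0.24, Fos from -0.21 to 0.20 and Herpud1 from -0.04 to 0.89. In those fits Krt18 ranged from -0.99 to 0.52, Krt19 from -1.10 to 0.40, Krt8 from -0.91 to 0.62, Mdm2 from -0.23 to 0.06, Pnp from -0.20 to 0.14 and Postn from -0.89 to 0.01. In those fits Pou5f1 ranged from -0.03 to 0.16, Rnase1 from -0.08 to 0.43, Rpl27a from -0.05 to 0.41, S100a4 from -0.85 to 0.05, Sntb2 from -0.22 to 0.04 and Sox2 from -0.09 to 0.10. Without the arrays of high 18S signal Dnmt3b had -0.17 and Rpl27a -0.05, and with the run block added -0.15 and -0.09. Without the second day Ap5m1 had 0.10, Fos 0.22, Postn 0.05, Rnase1 -0.27 and Sox2 0.19. With array medians equal Dnmt3b had -0.05, Parp2 -0.05 and Pou5f1 -0.04, and with the run block Dnmt3b had -0.14. With quantile normalization Fos had 0.02, Rnase1 -0.01 and Sox2 0.02, and with cyclic loess 0.00, 0.00 and 0.01.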

Other observations

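Genes of chromatin and DNA methylation held no call at 2 h by their brightest probe sets. Of 26 histone demethylase and Polycomb genes the median was 0.05. Kdm2b, a histone demethylase, read 223, 210 and 204 in WT and 361, 265 and 360 in KO (0.58, adjusted p = 0.118), and Suz12, a subunit of Polycomb complex PRC2, had 0.43. KO was higher on every array in Kdm2b. Of 12 DNA methylation genes the median was 0.02, with the de novo methyltransferase gene Dnmt3a at 0.63 and Tet1, which oxidises methylcytosine, at -0.49. Tet1 read 175, 185 and 173 in WT and 123, 129 and 112 in KO (adjusted p = 0.175). Of 16 histone chaperones the median was -0.06, and Asf1b, which hands histones to replicating DNA, had 0.53 (adjusted p = 0.0645).

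Stress and metabolic lists lay near the median of all genes, 0.054. The 25 amino acid and stress response genes had a median of 0.08, with Atf5 at 0.64, Cebpb at 0.48 and Trib3 at 0.46, none of them called. The 15 heat shock proteins had 0.15. Hspb1, a small heat shock protein, read 2280, 2430 and 2030 in WT and 2670, 2810 and 3160 in KO (0.36), while Hspa4 had -0.40. The 22 genes of ER chaperones and the unfolded protein response had 0.06, and the 24 of glycolysis and hypoxia -0.07, with Aldoc at -0.59 and Ldhb at -0.57. The 83 genes of oxidative phosphorylation had -0.03 and the 71 mitochondrial ribosomal proteins -0.02. Of 8 neuroectoderm genes the median was -0.22, with Gbx2 at 0.85 and the neuronal tubulin Tubb3 at -0.64, and no gene of these lists was called.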
